A study of Oryza sativa with 8 samples.

Results

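The DREB1 factors are plant transcription factors of the AP2/ERF family. They bind the dehydration-responsive element in the promoters of cold and dehydration genes. In rice and Arabidopsis, DREB1 genes are best known for their induction by cold, and their overexpression raises tolerance of cold, drought and salt. The related DREB2 factors are linked mainly with dehydration and heat. The rice genes DREB1A, DREB1B, DREB1C and DREB1G were described across the groups of the series. They were taken as the probe sets that the annotation of the array gives to these genes, together with 1 further DREB1C probe set, OsAffx.27442.1.S1_at, which that annotation does not name and which was assigned by its listing as DREB1C in the tables of the study. This gave 7 probe sets for 4 genes, of 57194 probe sets tested. DREB1A, DREB1B and DREB1G had 1 probe set each, and DREB1C had 4.

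Leaves of 21-day-old seedlings of japonica rice Zhonghua11 were measured on 8 Affymetrix rice arrays. The 4 groups of 2 arrays were OsGRAS23 overexpression plants under drought stress (OE drought), the same genotype under normal conditions (OE normal), wild type under drought stress (WT drought) and wild type under normal conditions (WT normal). OsGRAS23 encodes a GRAS family regulator. All seedlings grew in liquid culture, and each array came from the pooled leaves of 20 seedlings. Drought was imposed by moving seedlings onto filter paper, and all drought leaves were taken once those of WT had begun to roll. Normal leaves were taken before the treatment, so drought, handling and the time that passed cannot be told apart. Neither the promoter driving OsGRAS23 nor the number of transgenic lines is given in the sources used here. The overexpression label was not checked, because OsGRAS23 was not paired with a probe set here.

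The median log2 value of an array lay between 4.80 and 4.90, and replicate arrays correlated at 0.987 to 0.991 over all probe sets. Of 4 leaf marker genes, RBCS, RCA and CAB2R were bright on all 8 arrays, with log2 levels from 12.35 to 14.12, while the probe set of RBCS1 lay between 3.22 and 3.66. The 6 root marker genes had a mean log2 level of 5.01 and 5.21 in OE drought, 5.39 and 6.48 in OE normal, 4.78 and 4.85 in WT drought, and 6.00 and 6.89 in WT normal. This mean was higher on every normal array than on any drought array, and highest in replicate 2 of both normal groups. Single genes did not all follow it, since LSI1 read 9.43 and 9.95 in OE drought, against 9.27 and 11.89 in OE normal. LSI1, a silicon transporter of root cells, was well detected on all 8 arrays, between 9.20 and 11.89. IRT1, SCR1 and SHR1 lay at 4 or below on all 4 drought arrays. The 4 genes of the shoot meristem and dividing cells averaged 6.82 and 7.14 in OE drought, 7.70 and 6.52 in OE normal, 6.10 and 6.80 in WT drought, and 5.79 and 6.25 in WT normal. They did not move together, since in each line 2 had a drought change above 0 and 2 below 0. OSH1 alone read 7.12 and 4.15 in OE normal. Bulk arrays cannot tell fewer cells of a type from less RNA per cell.

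DREB1A and DREB1B were strongly down-regulated under drought in both lines. DREB1G fell by less and its fall was called in WT. No DREB1C probe set was called lower, and 1 of 4 was called higher, in WT. A probe set was called where limma gave a Benjamini-Hochberg adjusted p under 0.05 over all 57194 probe sets and the change was at least 2-fold. In OE plants 2 of the 7 DREB1 probe sets were called, both lower, against 2.43% of all probe sets (0.836% lower and 1.6% higher). In WT plants 4 of 7 were called, 3 lower and 1 higher, against 7.68% of all probe sets (5.51% lower and 2.17% higher). The median change of the 7 probe sets was 0.03 in OE and 0.47 in WT on the log2 scale, 4 of the probe sets being those of DREB1C. The median over all probe sets was 0.02 in OE and 0.08 in WT.

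**Figure D1:**
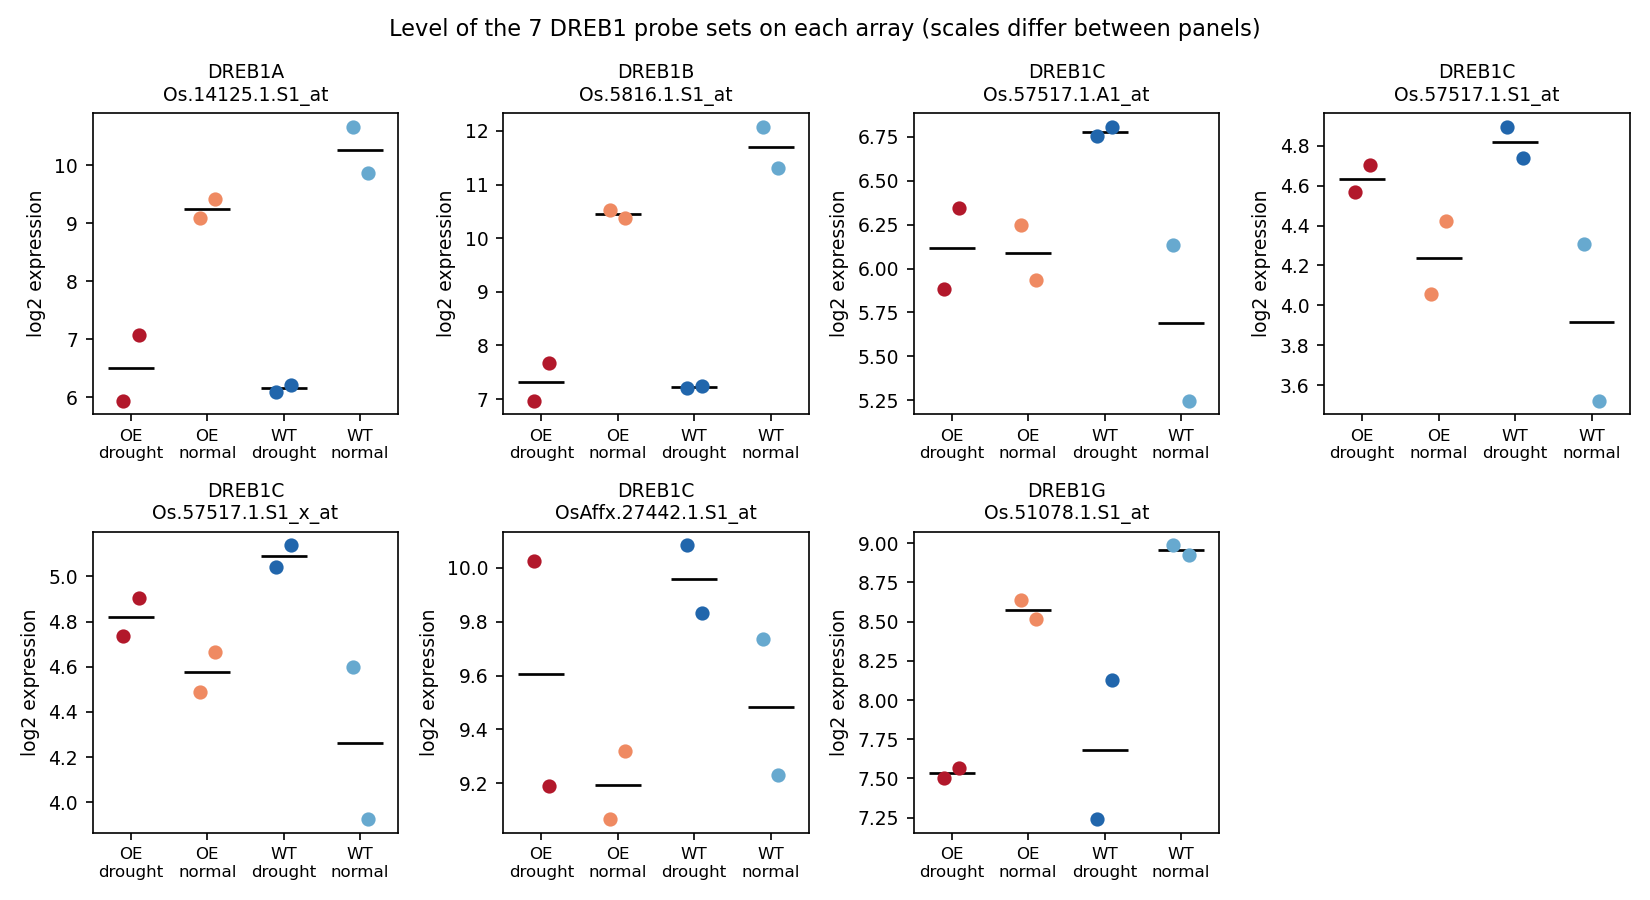
Log2 expression (y axis, RMA values) of each DREB1 probe set on the 2 arrays of each group (x axis). Points are arrays and the black line is the group mean. DREB1A and DREB1B lie at 7.67 or below on every drought array and at 9.08 or above on every normal array. No DREB1C probe set is lower on all drought arrays. Os.57517.1.S1_at and Os.57517.1.S1_x_at lie slightly higher on every drought array than on any normal array, and the other DREB1C probe sets overlap.

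DREB1B had the largest change of the 4 genes. Its probe set, Os.5816.1.S1_at, read 6.97 and 7.67 in OE drought, against 10.53 and 10.38 in OE normal. In WT it read 7.21 and 7.25 under drought, against 12.08 and 11.32 under normal conditions. All 4 drought arrays lay below all 4 normal arrays, and the highest values were those of WT normal. In OE the change was -3.13 ± 0.28 on the log2 scale (SE from limma), a fall of 8.77-fold with a 95% interval of 5.62 to 13.7 and an adjusted p of 0.00171. In WT the change was -4.47 ± 0.28, a fall of 22.2-fold with an interval of 14.2 to 34.6 and an adjusted p of 0.000299. Among the probe sets with a lower mean under drought, DREB1B ranked 6 of 26900 in OE and 3 of 23865 in WT by the size of its fall.

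DREB1A followed the same pattern. Its probe set, Os.14125.1.S1_at, read 5.94 and 7.07 in OE drought, against 9.08 and 9.42 in OE normal. The WT arrays read 6.09 and 6.21 under drought, against 10.66 and 9.87 under normal conditions. The OE drought replicates were the widest apart, by 1.12, and the higher of them still lay well below the lower OE normal array. DREB1A fell 6.72-fold in OE (log2 change -2.75 ± 0.36, 95% interval 3.79 to 11.9-fold, limma adjusted p 0.00678). It fell 17.3-fold in WT (log2 change -4.12 ± 0.36, 95% interval 9.77 to 30.8-fold, limma adjusted p 0.000758). Its rank by size of fall was 11 in OE and 7 in WT. The root markers were also lower under drought. In WT 3 of 6 were called lower (IRT1, LSI2 and SCR1), against 5.51% of all probe sets. In OE none of 6 was called lower, against 0.836%. Without WT normal replicate 2, the WT falls were larger, at -4.51 for DREB1A and -4.85 for DREB1B (limma adjusted p 0.00509 and 0.00219). Without OE normal replicate 2, the OE changes were -2.58 and -3.21 (adjusted p 0.0404 and 0.00950). The part of root marker RNA in the DREB1A and DREB1B values was not tested.

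DREB1G read 7.50 and 7.56 in OE drought, against 8.64 and 8.52 in OE normal, on the probe set Os.51078.1.S1_at. In WT it read 7.24 and 8.13 under drought, against 8.99 and 8.93 under normal conditions. Drought arrays again lay below normal arrays in each line, but the WT drought replicates were 0.89 apart. The WT change of -1.27 ± 0.25 was called, as a 2.42-fold fall with an interval of 1.62 to 3.60 and a limma adjusted p of 0.0122. This call was lost without WT drought replicate 1 (log2 change -0.83) and without WT normal replicate 2 (adjusted p 0.0706). The OE change of -1.04 ± 0.25, or 2.06-fold lower with an interval of 1.38 to 3.07, missed the threshold at an adjusted p of 0.0635.

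For DREB1C, estimates lay above 0 in both lines on all 4 probe sets, but in OE none was called and 2 of the 4 turned negative with 1 array left out. The probe set OsAffx.27442.1.S1_at read 10.02 and 9.19 in OE drought, against 9.07 and 9.32 in OE normal. In WT it read 10.08 and 9.83 under drought, against 9.74 and 9.23 under normal conditions. The OE groups overlapped, while in WT the lower drought array lay just above the higher normal array. Its log2 changes of 0.41 in OE (95% interval -0.23 to 1.05, limma adjusted p 0.536) and 0.47 in WT (-0.17 to 1.11, adjusted p 0.256) were not called. These intervals do not reach the estimated changes of DREB1A, DREB1B or DREB1G.

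The other DREB1C probe sets lay lower on the log2 scale, and their levels cannot be set against each other because probes differ in brightness. Os.57517.1.A1_at read 5.88 and 6.35 in OE drought, against 6.25 and 5.93 in OE normal. In WT it read 6.75 and 6.81 under drought, against 6.13 and 5.25 under normal conditions. Replicate 2 of WT normal was the lowest of the 8 arrays. The WT change of 1.09 ± 0.28 was called as a 2.13-fold rise (95% interval 1.36 to 3.33, limma adjusted p 0.0317), and the OE change of 0.03 was not (-0.62 to 0.67). The WT call did not hold when either WT drought array was left out (adjusted p 0.109 and 0.131), nor without WT normal replicate 2 (log2 change 0.65, adjusted p 0.186).

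The probe sets Os.57517.1.S1_at and Os.57517.1.S1_x_at are given to DREB1C by the array annotation and share a cluster number with Os.57517.1.A1_at. Whether the probe sets of DREB1C measure the same transcript was not checked. In Affymetrix names an x marks a probe set that can match several transcripts. Os.57517.1.S1_at read 4.57 and 4.70 in OE drought, against 4.06 and 4.42 in OE normal, and 4.90 and 4.74 in WT drought, against 4.31 and 3.52 in WT normal. Os.57517.1.S1_x_at read 4.74 and 4.90 in OE drought, against 4.49 and 4.67 in OE normal, and 5.04 and 5.14 in WT drought, against 4.60 and 3.93 in WT normal. Replicate 2 of WT normal was again lowest in both. On both probe sets every drought array lay above every normal array, by a small margin. Their WT changes of 0.90 and 0.83 had limma adjusted p values of 0.0388 and 0.0330 and stayed under 2-fold, and their OE changes of 0.39 and 0.24 had adjusted p values of 0.499 and 0.661. Without WT normal replicate 1 both WT changes were called, at 1.29 and 1.17. All 7 DREB1 probe sets had WT drought and WT normal arrays that did not overlap, against 64.2% of all probe sets. In OE 5 of 7 did not overlap, against 50.8%.

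**Figure D2:**
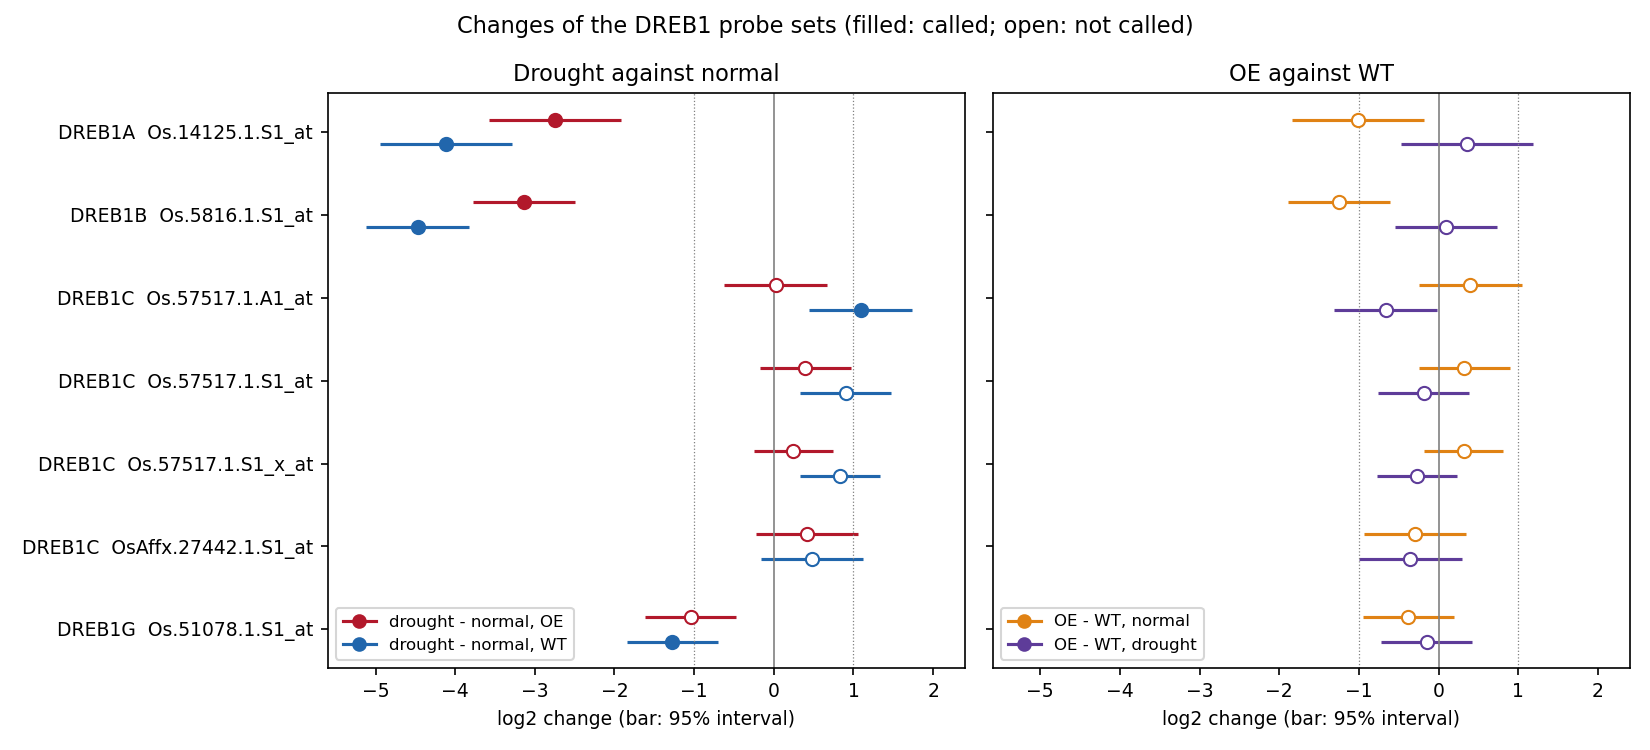
Log2 change of each DREB1 probe set (rows) for drought minus normal in OE and WT (left) and for OE minus WT under normal conditions and under drought (right). Points are limma estimates, filled where called, bars are 95% intervals, and dotted lines mark 2-fold. DREB1A and DREB1B stand at -2.75 to -4.47 in the left panel, and no OE minus WT difference is called.

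Under normal conditions, DREB1A and DREB1B were lower in OE than in WT, but neither difference passed the test across all probe sets. None of the 7 DREB1 probe sets was called, against 0.0192% of all probe sets (0.0157% higher and 0.0035% lower). Limma gave 2 of the 7 an unadjusted p under 0.05, against 2344 of all 57194 probe sets. For DREB1B the OE minus WT difference was -1.25 (95% interval -1.89 to -0.61, limma adjusted p 0.566), and both OE arrays lay below both WT arrays. For DREB1A it was -1.01 (-1.84 to -0.19, adjusted p 1), also without overlap. DREB1G was separated in the same direction by a difference of -0.38 (-0.95 to 0.19). In all, 3 of 7 probe sets did not overlap between the lines, against 30.9% of all probe sets. The intervals are those of single probe sets and are not adjusted.

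Under drought the lines lay close together for DREB1A and DREB1B. The OE minus WT difference was 0.35 for DREB1A (95% interval -0.47 to 1.18) and 0.09 for DREB1B (-0.55 to 0.73), and the OE drought replicates lay on both sides of the WT drought pair for each gene. DREB1G differed by -0.15 (-0.73 to 0.42). For DREB1C the differences of the 4 probe sets ran from -0.67 to -0.18, and the one of Os.57517.1.A1_at had an interval of -1.31 to -0.02 and a limma adjusted p of 0.694. No DREB1 probe set was called, against 0.0157% of all probe sets. Limma gave 1 of the 7 an unadjusted p under 0.05, against 4037 of all 57194 probe sets, and 3 of 7 did not overlap, against 39.8%.

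Whether the drought changes differed between OE and WT was tested as the difference of the changes. It was 1.37 for DREB1A (95% interval 0.20 to 2.54) and 1.34 for DREB1B (0.43 to 2.25), the falls being smaller in OE. It was -1.06 for DREB1C probe set Os.57517.1.A1_at (-1.98 to -0.15) and 0.23 for DREB1G (-0.58 to 1.04). The other DREB1C probe sets had intervals that include 0. Their differences were -0.51 for Os.57517.1.S1_at (-1.31 to 0.30), -0.59 for Os.57517.1.S1_x_at (-1.29 to 0.12) and -0.06 for OsAffx.27442.1.S1_at (-0.97 to 0.85). DREB1A, DREB1B and Os.57517.1.A1_at had unadjusted limma p values of 0.0269, 0.00879 and 0.0271 and an adjusted p of 0.729 each. No probe set on the array was called in this test, so the background is 0%, and 3839 of 57194 had an unadjusted p under 0.05. The comparisons share arrays, since WT normal enters the WT drought change, the OE minus WT difference and this test.

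In order of level, DREB1A and DREB1B were highest in WT normal, then OE normal, then OE drought and WT drought. In this order the neighbours WT normal and OE normal, and OE normal and OE drought, differed by intervals that exclude 0, whereas OE drought and WT drought did not. The intervals of neighbours are not adjusted, and the order was set by the same arrays. Neither gene was called between WT normal and OE normal. DREB1G ran from WT normal through OE normal and WT drought to OE drought, and only the step from OE normal to WT drought, of 0.89, had an interval that excludes 0 (0.32 to 1.47). All 4 DREB1C probe sets were highest in WT drought. Of their neighbouring steps, only WT drought over OE drought of Os.57517.1.A1_at excluded 0.

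The members also differed in how they moved together across the arrays. Pearson's r over the 8 arrays was 0.994 between DREB1A and DREB1B, 0.916 between DREB1A and DREB1G, and 0.930 between DREB1B and DREB1G. Each DREB1C probe set correlated negatively with these 3, at -0.52 to -0.79. OsAffx.27442.1.S1_at correlated with the other DREB1C probe sets at 0.42 to 0.60, and those among themselves at 0.83 to 0.97. The arrays share their 4 groups, so these values are a description. In the RefSeq gene table of assembly ASM3414082v1, DREB1B, DREB1H and DREB1A follow each other on chromosome 9, DREB1C is on chromosome 6 and DREB1G on chromosome 2. DREB1H was not paired with a probe set here.

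The genes most like each member were taken by Pearson's r over the 8 arrays among 1325 probe sets with 1 named gene and a range of at least 1 log2 unit. TPP1, a trehalose-6-phosphate phosphatase of the last step of trehalose synthesis, was the nearest to DREB1A (r = 0.995) and came after DREB1A for DREB1B (0.993). TPP1 read 10.25 and 10.74 in OE drought, against 11.61 and 11.61 in OE normal, and 10.46 and 10.58 in WT drought, against 12.10 and 11.78 in WT normal. All drought arrays lay below all normal arrays, both WT normal arrays were the highest, and the drought arrays of the lines overlapped. PDX12, a member of the family of vitamin B6 synthesis proteins, followed with r = 0.984 for DREB1A and 0.985 for DREB1B. It read 7.32 and 7.52 in OE drought, against 8.70 and 9.13 in OE normal, and 7.44 and 7.03 in WT drought, against 9.80 and 9.42 in WT normal, with the same separation.

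For DREB1G the nearest were CAD8C (r = 0.982), a cinnamyl alcohol dehydrogenase, CPD2 (0.975) and PCF8 (0.968), a TCP factor. For DREB1C probe set OsAffx.27442.1.S1_at they were CML31 (0.915), a calmodulin-like protein, WRKY24 (0.880) and PP2C02 (0.875), a protein phosphatase. The other 3 DREB1C probe sets all had JAZ6, a jasmonate signalling repressor, among their nearest (0.912 to 0.982). The others were PDC (pyruvate decarboxylase) and RTUB-2 for Os.57517.1.S1_at and Os.57517.1.S1_x_at, and EXP26 and AGO18, an Argonaute protein, for Os.57517.1.A1_at. None of the nearest genes of DREB1C was among those of the other 3 members. This follows largely from the negative r between the DREB1C probe sets and those members.

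**Figure D3:**
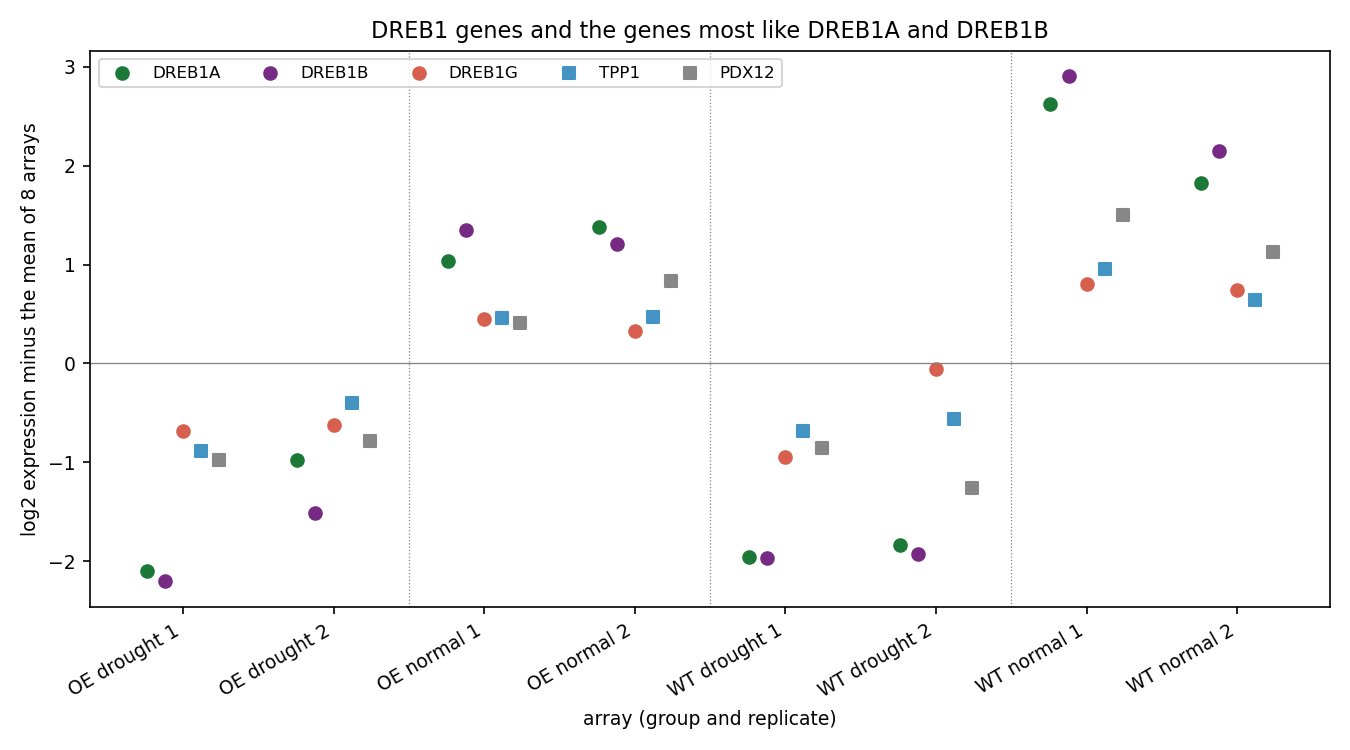
Log2 expression minus the mean of the 8 arrays (y axis) for DREB1A, DREB1B, DREB1G and the genes TPP1 and PDX12, on each array (x axis, dotted lines separate the groups). Each point is 1 array. All 5 genes lie above their own mean on the 4 normal arrays and below it on the 4 drought arrays. TPP1 and PDX12 were chosen for their r with DREB1A and DREB1B over these arrays, so their like split is no separate result.

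Outside the 4 genes, 4 other DREB genes had a probe set, and none was called in any comparison. Under drought, 2.43% of all probe sets were called in OE and 7.68% in WT. DREB1E read 6.60 and 6.57 in OE drought, against 7.43 and 7.26 in OE normal, and 7.14 and 6.86 in WT drought, against 7.64 and 7.96 in WT normal. Its log2 changes were -0.76 in OE (limma adjusted p 0.0536) and -0.80 in WT (0.0171), under 2-fold in both. DREB2A, the best known dehydration factor of the DREB2 group, had changes of 0.97 in OE (adjusted p 0.0760) and 0.73 in WT (0.0731), which were opposite in sign to those of DREB1A and DREB1B. DREB2B changed by 0.26 and 0.47 and DREB2D by 0.08 and -0.19 in OE and WT.

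Among 10 genes known to act on DREB1 expression or on cold and stress signalling, 1 was called higher and none lower in OE, against 2.43% of all probe sets called, and 1 was called higher and 1 lower in WT, against 7.68%. In each line 6 of the 10 had a change above 0. The median change of the list was 0.34 in OE and 0.58 in WT. SAPK6, a kinase of the SnRK2 family, rose in both lines by 1.55 in OE (limma adjusted p 0.00326) and 2.00 in WT (0.000682). PHYA, the phytochrome A photoreceptor, fell by 1.07 in WT (adjusted p 0.00626), and its other probe set was called differently. MYBS3, which represses DREB1 genes during prolonged cold in rice, read 10.63 and 10.36 in OE drought, against 9.61 and 9.88 in OE normal, and 10.61 and 10.68 in WT drought, against 9.94 and 9.73 in WT normal. It was higher on every drought array than on any normal array, but its changes of 0.75 in OE (adjusted p 0.0537) and 0.81 in WT (0.0159) were under 2-fold and not called.

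Of 13 cold and dehydration genes of the kind on which DREB1 factors act, 2 were called higher and 1 lower in OE, against 2.43% of all probe sets called, and 3 were called higher and 1 lower in WT, against 7.68%. In each line 11 of the 13 had a change above 0. The list's median change was 0.75 in OE and 0.67 in WT. RAB16B, a dehydrin, read 9.30 and 6.95 in OE drought, against 3.78 and 3.77 in OE normal, and 8.66 and 6.79 in WT drought, against 3.89 and 4.16 in WT normal. It rose by 4.35 in OE (limma adjusted p 0.0170) and 3.70 in WT (0.0117). LIP9, also a dehydrin, rose by 2.15 in OE (adjusted p 0.00260) and 1.78 in WT (0.00211), while its other 2 probe sets were called differently. The dehydrin RAB21 rose by 3.60 in WT (adjusted p 0.0209), with its other probe set called differently, and its OE change of 3.28 missed the threshold (0.0725). TPP1 was the gene called lower, and it fell by 1.11 in OE (adjusted p 0.0205) and by 1.42 in WT (0.00330). The called dehydrin probe sets and those of DREB1A and DREB1B thus moved in opposite directions under drought. None of the 13 genes was called between OE and WT, against 0.0192% of all probe sets under normal conditions and 0.0157% under drought.

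The 7 clock genes with a probe set were compared because the normal and drought leaves were not taken at the same time. None was called in any comparison, while under drought 2.43% of all probe sets were called in OE and 7.68% in WT. The median change was -0.10 in OE and -0.20 in WT. Their changes ran from -0.59 to 0.78 in OE and from -0.80 to 0.11 in WT. PRR1 had the largest WT change, of -0.80 (limma adjusted p 0.0310), and GI changed by -0.02 in OE and 0.01 in WT. The part of the time of sampling in the DREB1 values was not tested.

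Of 9 wound and touch genes, none was called in OE, where 2.43% of all probe sets were called. In WT 3 were called higher and 1 lower, against 7.68% of all probe sets called. In each line 7 of the 9 had a change above 0. The list's median change was 0.46 in OE and 0.62 in WT. Of the jasmonate synthesis genes, AOC and AOS1 rose by 1.07 (limma adjusted p 0.00689) and 1.39 (0.00844) in WT. AOS2 went the other way there, with a change of -0.80 (adjusted p 0.0339) that was not called. WRKY62, a WRKY factor, rose by 1.85 in WT (0.0319). CML24, a calmodulin-like protein, fell by 1.05 (adjusted p 0.0198). WRKY71, which was not called, had another probe set that was called in WT. The part of handling in the DREB1 values was not tested.

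**Figure D4:**
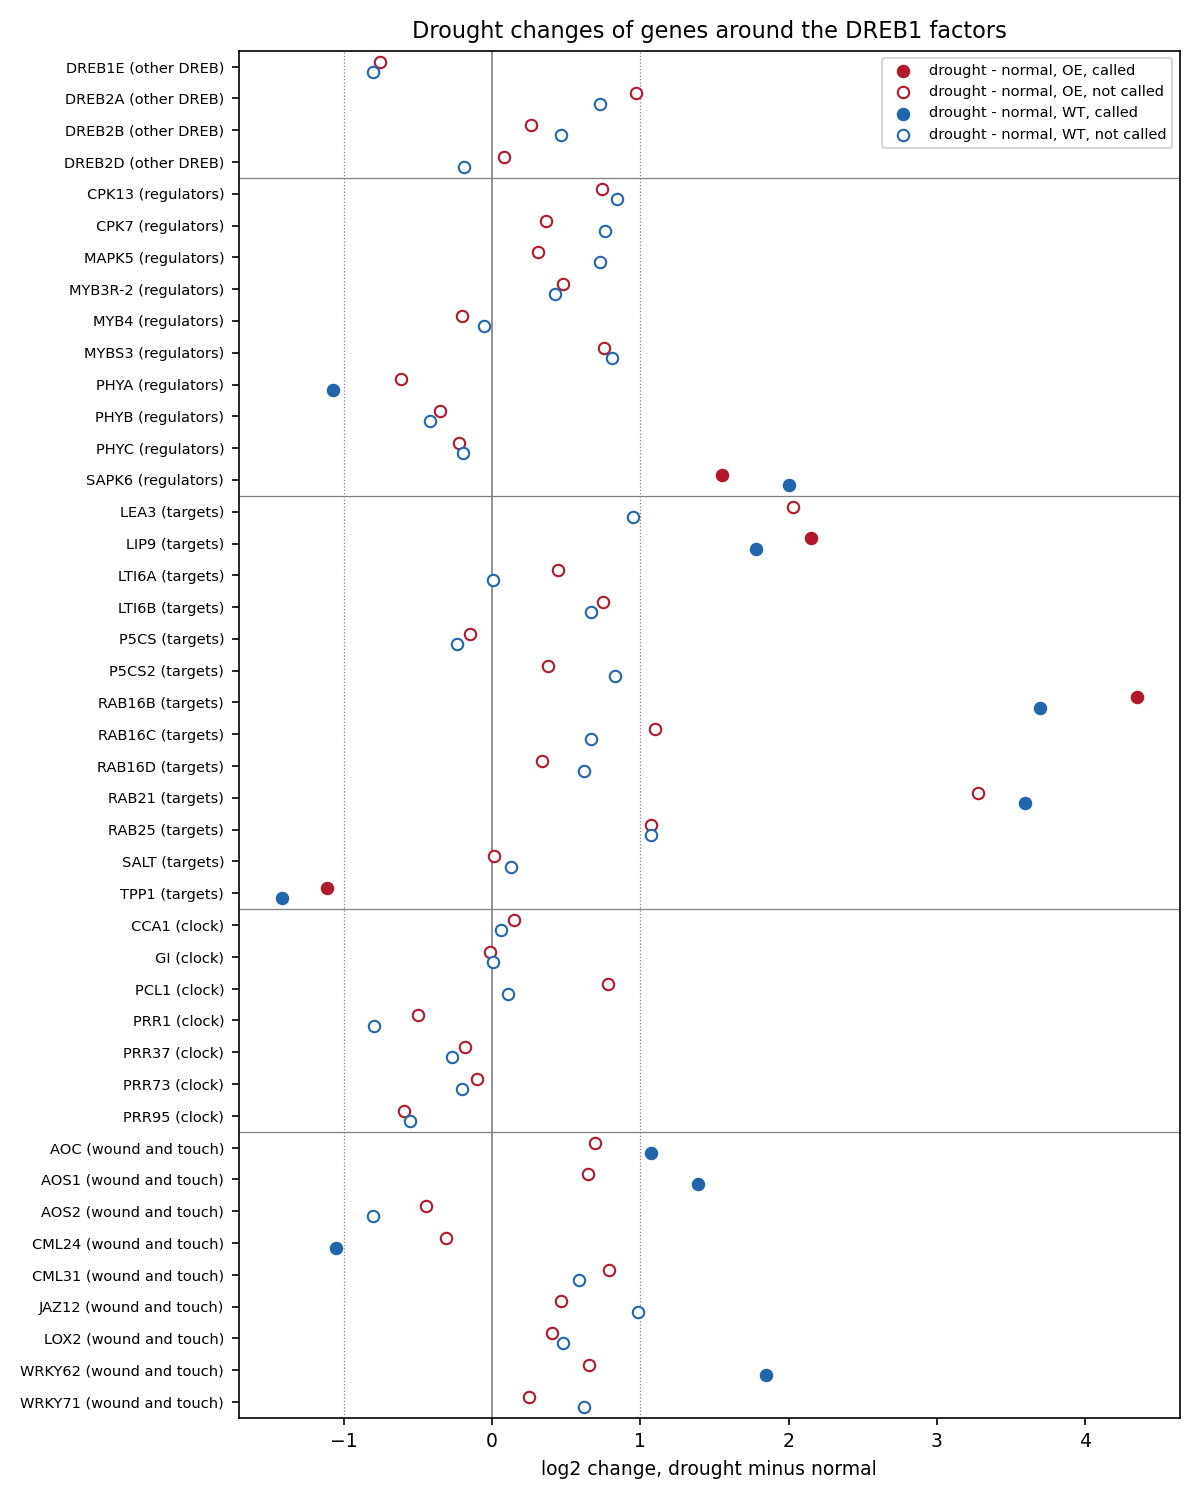
Log2 change, drought minus normal (x axis), of the other DREB genes, regulators, cold and dehydration targets, clock genes and wound and touch genes (rows), in OE and WT. Each point is the limma estimate for 1 gene, filled where called, and dotted lines mark 2-fold. RAB16B and SAPK6 are called higher and TPP1 lower in both lines, and no clock gene or other DREB gene is called.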

How the data were processed

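Total RNA of 8 leaf samples (6 µg each) was hybridised to Affymetrix rice arrays. The deposited values are log2 intensities, 1 per probe set. The submitters' processing notes name RMA and Partek 6.5, and the settings are not given in the sources used here. No further normalization was applied. Groups came from the sample labels. All 8 arrays were fitted together with limma 3.58.1 in R 4.3.3 (4 residual and 4.85 prior degrees of freedom), and p values were adjusted by Benjamini-Hochberg over the 57194 probe sets that remained without 187 array controls. Calls required an adjusted p below 0.05 together with a fold threshold of 2. The study used that fold threshold for its own arrays, of plants transgenic for another gene. It drew on the present series for a drought profile of WT. Plots were drawn in Python 3.11.15 with pandas 2.3.3, numpy 2.4.6 and matplotlib 3.10.9. The limma step was tested on simulated data. With 2 arrays a group, an exact permutation test of a single value cannot go below a two-sided p of 0.333, so none was used. Precision is limited by how few arrays there are.

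Of the probe sets, 22436 had 1 gene in the platform annotation, 95 several and 34663 none listed. Gene lists were matched by symbol or synonym through that annotation and RefSeq, with the brightest probe set standing for a gene. Named were all probe sets of the 4 genes, other DREB1 genes, the 3 genes most like each member, and up to 4 called risers and 4 called fallers of each list. Further genes of the lists (DREB2 genes, MYBS3, PRR1, GI, AOS2 and WRKY71) and the markers were named after their values were seen. The members and lists were chosen with earlier results of these data known. Alternatives covered normalization, dim probe sets, thresholds, variance model, replicate block, arrays fitted and each array left out.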

Additional observations from a re-analysis of the deposited data

How the results depend on the processing

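The falls of DREB1A and DREB1B kept their direction and their calls in both lines under all 15 alternatives tried for each. Only rescaling the arrays or leaving out an array of the groups compared could alter the estimates. The rest bore on the calls alone. Log2 changes were -3.31 to -2.19 (OE) and -4.51 to -3.72 (WT) for DREB1A. For DREB1B they were -3.48 to -2.79 (OE) and -4.85 to -4.09 (WT). The highest adjusted p was 0.0442, for DREB1A in OE. The DREB1G change in OE (-1.04) was called with dim probe sets left out (adjusted p 0.0483), with a trended and robust spread (0.0449), with only the arrays compared (0.0278) and without either WT drought array (0.0179), and ran from -1.10 to -0.99 with 1 array left out. In WT it ran from -1.72 to -0.83. The DREB1C probe set Os.57517.1.A1_at lost its WT call (1.09) with only the arrays compared (adjusted p 0.0512), and ran from 0.65 to 1.53 with 1 array left out. The same ranges were 0.51 to 1.29 for Os.57517.1.S1_at and 0.49 to 1.17 for Os.57517.1.S1_x_at. At an adjusted p under 0.01, DREB1A and DREB1B were the 2 DREB1 probe sets called in WT, and with 1 array left out 2 to 6 were called there.

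Differences that were not called changed sign in places. DREB1B in OE minus WT under drought was -0.0293 after quantile normalization, and the difference of drought changes of OsAffx.27442.1.S1_at was 0.00638 after median centring. With 1 array left out, the drought change in OE ran from -0.21 to 0.26 for Os.57517.1.A1_at and from -0.00488 to 0.83 for OsAffx.27442.1.S1_at. OE minus WT under normal conditions ran from -0.0445 to 0.84 for Os.57517.1.A1_at, -0.0668 to 0.72 for Os.57517.1.S1_at and -0.0208 to 0.65 for Os.57517.1.S1_x_at, below 0 only without WT normal replicate 2. OE minus WT under drought ran from -0.21 to 0.91 for DREB1A, -0.26 to 0.44 for DREB1B, -0.77 to 0.0655 for OsAffx.27442.1.S1_at (each reversed without OE drought replicate 2) and -0.59 to 0.29 for DREB1G (reversed without WT drought replicate 2). The difference of drought changes ran from -0.48 to 0.36 for OsAffx.27442.1.S1_at and -0.21 to 0.67 for DREB1G. The cause of these changes was not tested.

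Over all probe sets, 1392 were called in OE under drought, against 444 at an adjusted p under 0.01 and 317 to 1469 with 1 array left out (317 without OE normal replicate 1, 682 without OE drought replicate 2, 842 without OE normal replicate 2). In WT 4392 were called, against 10532 with no fold minimum, 2537 at an adjusted p under 0.01 and 1930 to 7223 with 1 array left out (7223 without WT normal replicate 1, 1930 without replicate 2 of that group and 2908 without WT drought replicate 2). Of the WT calls 28.2% were higher, against 41.1% after quantile normalization and 21.2% after median centring. In OE minus WT under normal conditions 11 were called, against 21 with a trended and robust spread, 7 when probe sets matching several transcripts were dropped, and 7 to 22 with 1 array left out (7 without OE normal replicate 1, 22 without OE normal replicate 2). Of 790 counts of called list genes under alternatives, 22 moved beyond the limits set for them. Most of these counts were 0 in the main fit, and a 0 that stayed 0 was taken as unmoved. The total is therefore no measure of how stable the list results are.

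The replicate numbers were not shown to pair the arrays. Deviations of same-numbered arrays correlated at 0.07 (OE drought and OE normal), -0.06 (WT drought and WT normal), 0.10 (both drought groups) and -0.04 (both normal groups). With the replicate block, 1355 probe sets were called in OE and 4339 in WT, and no call of a DREB1 probe set changed. The planned description of proteins and promoters was not run, and no sequences were used here. With 2 arrays a group, intervals are wide for the OE minus WT differences.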
